A study of Arabidopsis thaliana with 40 samples.

Results

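The subject is a group of 76 Arabidopsis probe sets, of 22746 measured, whose transcripts fell steeply in wild-type leaves under moderate light with drought (MLD) and fell far less, or went up, in leaves of the aox1a:rpoTmp double mutant. Members were chosen on log2 group means of the arrays run for the double mutant and its wild type. A member had a wild-type change (MLD minus untreated) of -3 or less, a wild-type untreated mean of at least 7, and a double mutant change above -1. A log2 difference of 1 is a factor of 2. Of 113 probe sets that met both wild-type conditions, ARR15 was left out, 76 became members, and 36 fell in the double mutant as well. Of the 76 members, 27 pair with a single gene, 9 with several loci and 40 with no gene in the annotation used here. Because the changes in the double set chose the members, values from that set are a description without a test, and tests come from the arrays of the single mutants.

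Total RNA from leaves was hybridised to 40 Affymetrix 3′ arrays in 3 sets, each with its own Columbia (Col0) wild type: the aox1a set (14 arrays), the rpoTmp set (14 arrays) and the aox1a:rpoTmp set (12 arrays). For aox1a and for rpoTmp 2 lines were used, each with 2 arrays in either treatment. The double mutant and each wild type have 3 arrays in either treatment. MLD plants spent 4 d at about 350 µE of light without water, and untreated plants stayed at 100 µE with watering. The labels do not describe the mutant alleles, and none says whether plants were pooled or whether replicates are separate cultures, so p-values measure the spread between arrays only. The labels disagree on age: for the double mutant they give 5 weeks (untreated) and 4 weeks (MLD) as a characteristic, 4 weeks in the source name and 6 to 7 weeks in the protocol. For the wild type of that set the characteristic is likewise 5 weeks untreated and 4 weeks under MLD, with 4 weeks in the other labels. The rpoTmp plants are given 5, 4 and 5 weeks in these 3 places. The aox1a plants and the wild types of both single-mutant sets are given 4 weeks throughout. Age and genotype therefore cannot be told apart in the double set where the protocol holds. The same is true of the rpoTmp set where the protocol or the characteristic holds. Age and treatment cannot be told apart in the double set where the characteristic holds.

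AOX1A encodes a mitochondrial alternative oxidase, which passes electrons from ubiquinol to oxygen without the cytochrome pathway, and RPOTMP encodes a phage-type RNA polymerase found in mitochondria and plastids. Drought and strong light are known to slow leaf growth, and plants under stress commonly lower transcripts for new chromatin, ribosomes, plastid metabolism and cell wall or secreted proteins. The single-gene members hold examples of each of these kinds: histones, ribosomal and RNA-modifying proteins, plastid and metabolic enzymes, and a large share of secreted, wall and defence proteins.

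Over the 76 members the median wild-type change in the aox1a:rpoTmp set was -3.61 (range -5.29 to -3.01) and the median change in the double mutant was 0.17 (range -0.82 to 1.81). Of the 76, 56 changed by less than 0.5 in either direction in the double mutant, a share close to that of all probe sets (17504 of 22746). Over all probe sets the medians were -0.04 and -0.03. The median level of the members was 8.99 in untreated wild type, 5.35 in wild type under MLD, 8.25 in the untreated double mutant and 8.44 in the double mutant under MLD. Under MLD the members thus stood a median of 2.97 higher in the double mutant than in wild type (range 1.32 to 5.52).

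**Figure D1:**
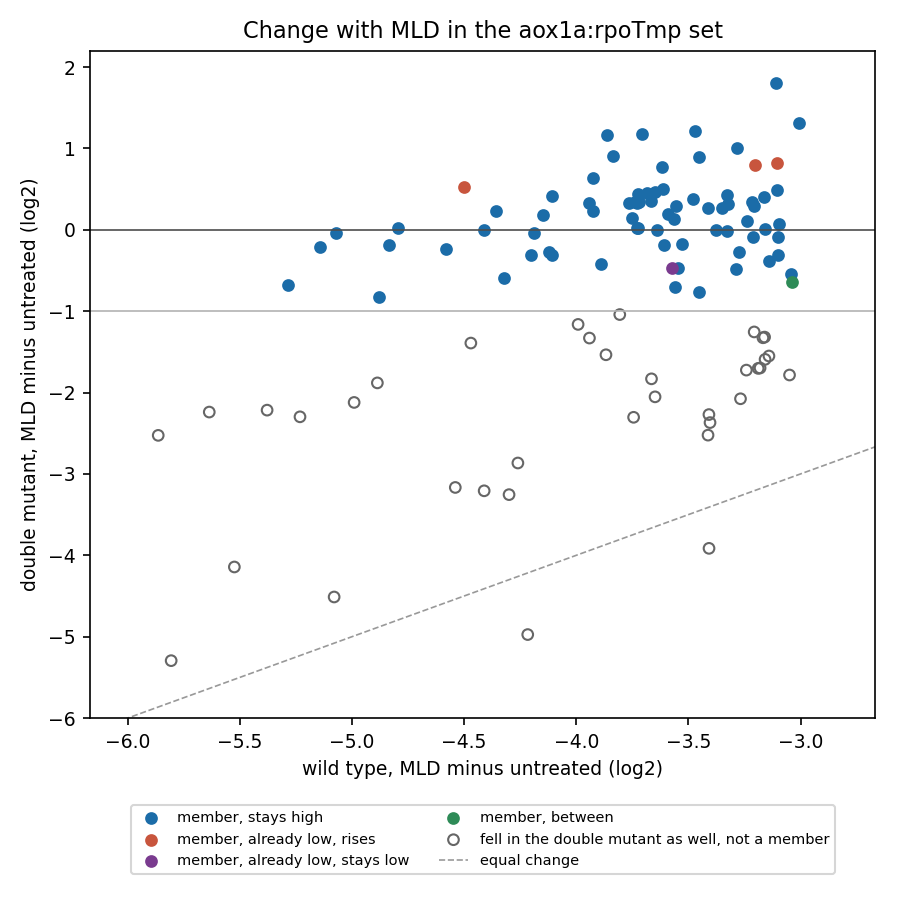
Change with MLD on the log2 scale in the aox1a:rpoTmp set, wild type on the horizontal axis and double mutant on the vertical axis, for the 76 members (filled points, coloured by class) and for the 36 probe sets that met both wild-type conditions and also fell in the double mutant (open circles). The grey line marks the limit of -1 that divides them, and the dashed line marks equal change in both genotypes.

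A fall can be missing because a transcript stays at its untreated level or because it is low to begin with, so the members were divided at the midpoint of the wild-type untreated and MLD means. By this measure 71 members stayed high in the double mutant, above the midpoint in both treatments. Another 4 were already low in the untreated double mutant, at or below the midpoint. The last, an unnamed probe set, went from 7.44 ± 0.22 (SD, n = 3) to 6.80 ± 0.25 and crossed its midpoint of 6.89. Of the 4 that began low, AT1G31690, AT5G35740 and an unnamed probe set ended above the midpoint under MLD, and another unnamed probe set did not, at 7.43 ± 0.33 untreated and 6.97 ± 0.55 under MLD (SD, n = 3). The count already low became 7 without double mutant untreated replicate 2 and 2 without wild-type MLD replicate 2. The split is not sharp, and some members lie close to the midpoint. AT5G35740, counted as already low, had an untreated double mutant mean of 6.58 against a midpoint of 6.67. Cpn60beta2, counted as staying high, had 9.75 against 9.72. Already low does not mean as low as wild type under MLD, a level at which no member began. In untreated plants 64 of the 76 members were lower in the double mutant than in wild type, by a median over all members of -0.95. Over all probe sets 13743 of 22746 were lower, with a median of -0.03. The rule used the untreated wild-type mean, so this difference is a description without a test.

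Counting arrays that do not overlap, all 76 members had every wild-type MLD array below every untreated wild-type array, which 32.7% of all probe sets also had. In the double mutant 8 members had all MLD arrays below all untreated arrays (24.9% of all probe sets) and 16 had them above (14.9%). In untreated plants 50 members had all double mutant arrays below all wild-type arrays (20.9%), and 8 had them above (16.7%). Under MLD all 76 had the double mutant arrays above the wild-type arrays (22.1%), and 45 of the 76 still had them below the untreated wild type (30.7%). All 76, the already low ones included, also had every untreated double mutant array above every wild-type MLD array (28.6%). These counts come from the values that chose the members.

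The plot of single members by array shows the single-gene members with the deepest wild-type fall, 8 among those that stayed high and both that were already low. Deepest was AT3G16670, which encodes an Ole e 1-like (pollen allergen type) secreted protein. Its log2 intensities were 10.16, 10.43 and 10.27 in untreated wild type and 5.70, 6.74 and 3.21 under MLD. In the double mutant they were 9.20, 9.84 and 9.56 untreated and 9.56, 9.57 and 9.37 under MLD. The wild-type MLD arrays lie far below all others and differ widely among themselves, while the double mutant arrays of both treatments overlap.

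**Figure D2:**
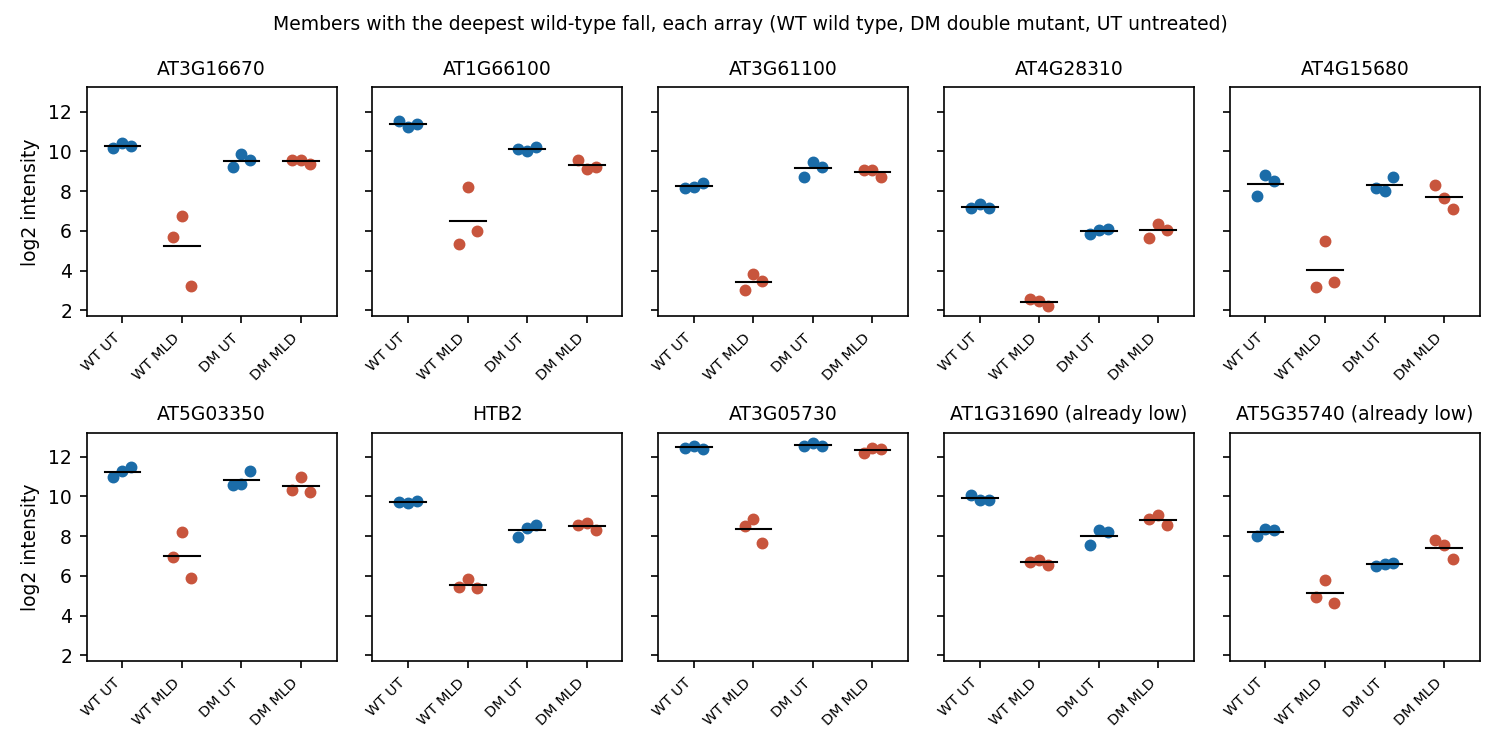
Log2 intensity on each of the 12 arrays of the aox1a:rpoTmp set for 10 single-gene members, with untreated arrays in blue, MLD arrays in red and a bar at each group mean (3 arrays a group). In every panel the wild-type MLD points lie below the other groups. The untreated double mutant lies below the untreated wild type in the AT1G31690 and AT5G35740 panels, and also in the AT3G16670, AT1G66100, AT4G28310 and HTB2 panels.

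A pair of secreted defence-type peptides also fell steeply in wild type. AT1G66100 encodes a thionin, a small antimicrobial peptide. It read 11.53, 11.25 and 11.37 in untreated wild type, 5.32, 8.20 and 5.99 in wild type under MLD, 10.10, 10.03 and 10.23 in the untreated double mutant, and 9.55, 9.13 and 9.21 in the double mutant under MLD. Here the double mutant did drop, with all 3 MLD arrays below all 3 untreated ones, but by -0.82 against -4.88 in wild type. AT3G05730, a defensin-like protein, read 12.44, 12.53 and 12.41 in untreated wild type and 8.50, 8.85 and 7.67 under MLD. In the double mutant it read 12.55, 12.69 and 12.55 untreated and 12.17, 12.43 and 12.36 under MLD, again with every MLD array below every untreated one, a change of -0.28 against -4.12 in wild type.

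AT5G03350 encodes a legume lectin-like protein, a sugar-binding protein of the kind induced in defence. It read 10.95, 11.26 and 11.45 in untreated wild type and 6.95, 8.22 and 5.89 under MLD. In the double mutant it read 10.56, 10.61 and 11.29 untreated and 10.34, 10.96 and 10.24 under MLD. The double mutant arrays of the treatments overlap with each other, and all lie above the wild-type MLD arrays.

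Among the members with other or unassigned roles, AT4G15680 encodes a CC-type glutaredoxin, a family of small redox proteins particular to land plants. It read 7.75, 8.80 and 8.53 in untreated wild type and 3.17, 5.50 and 3.43 under MLD, against 8.14, 8.02 and 8.71 in the untreated double mutant and 8.32, 7.67 and 7.08 in the double mutant under MLD. The double mutant arrays of the treatments overlap. AT3G61100 read 8.15, 8.23 and 8.42 in untreated wild type, 3.02, 3.81 and 3.47 under MLD, 8.72, 9.48 and 9.22 in the untreated double mutant and 9.07, 9.07 and 8.72 in the double mutant under MLD. It is one of the 8 members for which every untreated double mutant array lay above every untreated wild-type array. AT4G28310 read 7.17, 7.35 and 7.14 in untreated wild type and 2.58, 2.48 and 2.22 under MLD, close to the lower quartile of all probe sets. In the double mutant it read 5.83, 6.07 and 6.10 untreated and 5.65, 6.36 and 6.05 under MLD, an intermediate level that both treatments share.

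Histones are represented by HTB1 and HTB2, both histone H2B genes, and by 7 probe sets that each pair with several loci. HTB2 read 9.71, 9.64 and 9.77 in untreated wild type, 5.45, 5.84 and 5.39 under MLD, 7.97, 8.43 and 8.56 in the untreated double mutant and 8.54, 8.64 and 8.33 in the double mutant under MLD. HTB1 read 8.97, 8.94 and 9.16, then 5.75, 5.47 and 5.86 in wild type, and 7.54, 7.74 and 7.52, then 7.57, 7.87 and 7.33 in the double mutant. Both therefore sat at an intermediate level in the double mutant whatever the treatment, below untreated wild type and above wild type under MLD. Of the 7 shared probe sets, 5 list the same 5 loci, which encode histone H3, and 2 list the same 8 loci, which encode histone H4, so they are not 7 independent genes. Their wild-type changes ran from -4.58 to -3.53 and their double mutant changes from -0.24 to 0.36, with the untreated double mutant 1.05 to 1.52 below untreated wild type. How far closely related histone transcripts share signal on these probe sets was not tested. Other H2B genes with single-gene probe sets, looked up after these values were seen, moved less in wild type: HTB11 by -2.57 and HTB4 by -1.91, against -0.32 and -0.09 in the double mutant.

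The 6 ribosome and RNA members were AT3G10610, AT4G10450, AT4G17390 and AT4G30800, which encode cytosolic ribosomal proteins, AT4G12600, of the L7Ae family of RNA-binding proteins, and AT3G21300, an RNA methyltransferase family protein. Their wild-type changes ran from -3.86 to -3.10. Unlike the histones, they showed a median difference between untreated double mutant and untreated wild type of only -0.12 (range -1.47 to 0.49). AT4G30800, for example, read 7.23, 7.26 and 7.01 in untreated wild type, 3.78, 4.10 and 4.00 under MLD, 6.74, 7.37 and 7.47 in the untreated double mutant and 7.27, 7.83 and 7.33 in the double mutant under MLD. All double mutant arrays of that gene lie around its untreated wild-type level, far above wild type under MLD. AT3G21300 differed from the other 5, starting 1.47 lower in the untreated double mutant and going up by 1.16 under MLD.

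The 5 plastid and metabolic members were AT3G23940 (dihydroxyacid dehydratase of branched-chain amino acid synthesis), UPP (uracil phosphoribosyltransferase of pyrimidine salvage), Cpn60beta2 (a subunit of the chloroplast chaperonin), GPDHp (plastid glycerol-3-phosphate dehydrogenase of glycerolipid synthesis) and CCS (the copper chaperone of superoxide dismutase). Their wild-type changes ran from -3.75 to -3.01 and their double mutant changes from 0.15 to 1.32. In untreated plants the double mutant stood below wild type for all 5, by -0.37 to -1.53. Cpn60beta2 went from 9.75 ± 0.62 to 11.07 ± 0.11 in the double mutant (SD, n = 3), close to its untreated wild-type mean of 11.22 ± 0.15.

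The remaining secreted, wall and defence members were AT2G10940 (a proline-rich protein of the lipid-transfer type), AT5G55450 (lipid transfer protein-like), AT1G09750 (an aspartyl protease family protein), AT5G35740 (a carbohydrate-binding X8 domain protein) and AT1G31690 (a copper amine oxidase). AT2G10940 read 12.68, 12.55 and 12.51 in untreated wild type, 8.38, 9.58 and 8.59 under MLD, 11.81, 12.01 and 11.78 in the untreated double mutant and 12.14, 11.81 and 11.72 in the double mutant under MLD. Its double mutant arrays overlap between treatments. AT1G31690, already low, read 10.05, 9.82 and 9.84 in untreated wild type, 6.72, 6.80 and 6.57 under MLD, 7.56, 8.30 and 8.22 in the untreated double mutant and 8.87, 9.04 and 8.54 in the double mutant under MLD. AT5G35740, also already low, read 8.00, 8.36 and 8.32, then 4.94, 5.79 and 4.63 in wild type, and 6.50, 6.60 and 6.63, then 7.79, 7.54 and 6.85 in the double mutant. For both of these genes every MLD array of the double mutant lay above every untreated one, the opposite direction to wild type.

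The other single-gene members were AT5G19750, of the Mpv17/PMP22 family of membrane proteins, with a wild-type change of -3.48 and a double mutant change of 0.38, and AT5G54970, with -3.22 and 0.34. The 2 further probe sets with several loci pair with cyclopropane fatty acid synthase family genes (-3.59 and 0.19) and with dihydrodipicolinate reductase genes of lysine synthesis (-4.19 and -0.04). The 40 unnamed members had a median wild-type change of -3.62 and a median double mutant change of 0.29 (range -0.76 to 1.81), so the named members do not stand for a distinct part of the range.

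The limits of the rule fall within a continuous range. On the wild-type change, Cpn60beta2 (-3.01) and AT4G17390 (-3.10) lay just inside, and AT4G29020 (-2.99) and CYTC6A (-2.98) just outside. On the untreated level, GPDHp (7.15) and AT4G30800 (7.17) lay inside, and CYP71B22 (6.75) and AT1G79150 (6.74) outside. On the double mutant change, AT1G66100 (-0.82) and AT4G15680 (-0.60) lay inside, and AT4G15700 (-1.16) and AT1G30820 (-1.26) outside. AT4G15700 is a further CC-type glutaredoxin, so the limit divides that family. ARR15, a cytokinin-induced response regulator that was left out, fell from 7.70 ± 0.54 to 2.67 ± 0.06 in wild type and stood at 3.86 ± 0.31 and 2.90 ± 0.32 in the double mutant (SD, n = 3).

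Because the rule used all 12 arrays of the set, it was also applied with 1 replicate number left out of every group, and the arrays left out were then read. Left out in turn, replicate numbers 1, 2 and 3 gave 69, 101 and 77 members, of which 67, 73 and 69 were among the 76. On the arrays left out, the median wild-type change of the newly chosen members was -3.83, -2.96 and -3.91, and the median double mutant change was 0.57, 0.12 and -0.18. The double mutant change lay above the wild-type change for every one of them. The share of all probe sets with this order was not computed, so that count is a description and no support. Over all probe sets the medians on the arrays left out were -0.03, 0.00 and -0.09 in wild type. In the double mutant they were -0.04, -0.03 and -0.01. On the arrays left out, the wild-type fall reached 3 for 65 of 69, 47 of 101 and 67 of 77. These arrays belong to the same set, and the labels do not say whether replicates are separate cultures. This check was added after the data had been seen, and it has 1 array per group.

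Within the double set, control probe sets for the ends of the GAPDH transcript, which serve as a sign of RNA quality, also differed between groups. The log2 ratio of 3′ to 5′ signal was 3.60 ± 0.10 in untreated wild type, 4.02 ± 0.12 in wild type under MLD, 3.21 ± 0.07 in the untreated double mutant and 3.33 ± 0.26 in the double mutant under MLD (SD, n = 3). It was highest where the members were lowest, and its part in the result was not tested. Of 9 senescence markers listed, SAG29 and WRKY53 were measured. Their summed intensity ran from 90.4 to 189 in untreated wild type, 889 to 1116 in wild type under MLD, 335 to 639 in the untreated double mutant and 317 to 1064 in the double mutant under MLD. Rubisco activase (RCA), the 1 of 8 mesophyll markers measured, ran from 17251 to 20582 over the 12 arrays, a high level on these arrays. The 1 of 8 phloem markers measured, SWEET11, ran from 1803 to 2464 in untreated wild type and from 4445 to 5627 under MLD, and from 2851 to 4064 in the double mutant. TRY, the 1 of 7 trichome markers measured, was highest where the members were lowest, at low intensities: it ran from 7.6 to 12.4 in untreated wild type, 24.9 to 30.0 under MLD, 7.0 to 10.5 in the untreated double mutant and 12.1 to 13.1 in the double mutant under MLD. It was called higher under MLD in wild type and lower in the double mutant than in wild type under MLD (limma). FMA, MUTE and SPCH, 3 of 11 guard cell markers, summed to at most 116 on any array of the set. The lists for xylem, floral organs, dividing cells and roots had no single-gene probe set. Fewer cells of a type and less RNA per cell cannot be told apart in whole leaves, and the part of these markers in the result was not tested.

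The rule for members used no value from the arrays of the single mutants, although the group was proposed with earlier results of those arrays known, so they are not independent support. The first question they answer is how wild type behaved there. In the rpoTmp set 14 of 76 members fell under MLD in wild type and none rose (limma, adjusted p under 0.05), against 1.99% of all probe sets that fell and 1.62% that rose. The median change was -0.64, with 68 of 76 estimates below 0. Over all probe sets the median was -0.01, with 12512 of 22746 estimates below 0. In the set that chose the members the median wild-type change was -3.61. Of the 14, 9 were single genes, and 5 of these came from the 6 ribosome and RNA members. AT3G16670 changed by -1.92 ± 0.38 (SE, adjusted p = 0.0317), AT4G30800 by -1.67 ± 0.24 (adjusted p = 0.0128), AT3G61100 by -1.32 ± 0.29 (adjusted p = 0.0409), AT4G12600 by -1.20 ± 0.21 (adjusted p = 0.022) and AT4G10450 by -1.18 ± 0.24 (adjusted p = 0.0339). Among these 5 only AT4G30800 kept its call when any 1 of the 14 arrays was left out, and without wild-type MLD replicate 1 the count of members called dropped from 14 to 1. Leaving out 1 array moved that count by over 1.5 times for 7 of the 14 arrays.

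**Figure D3:**
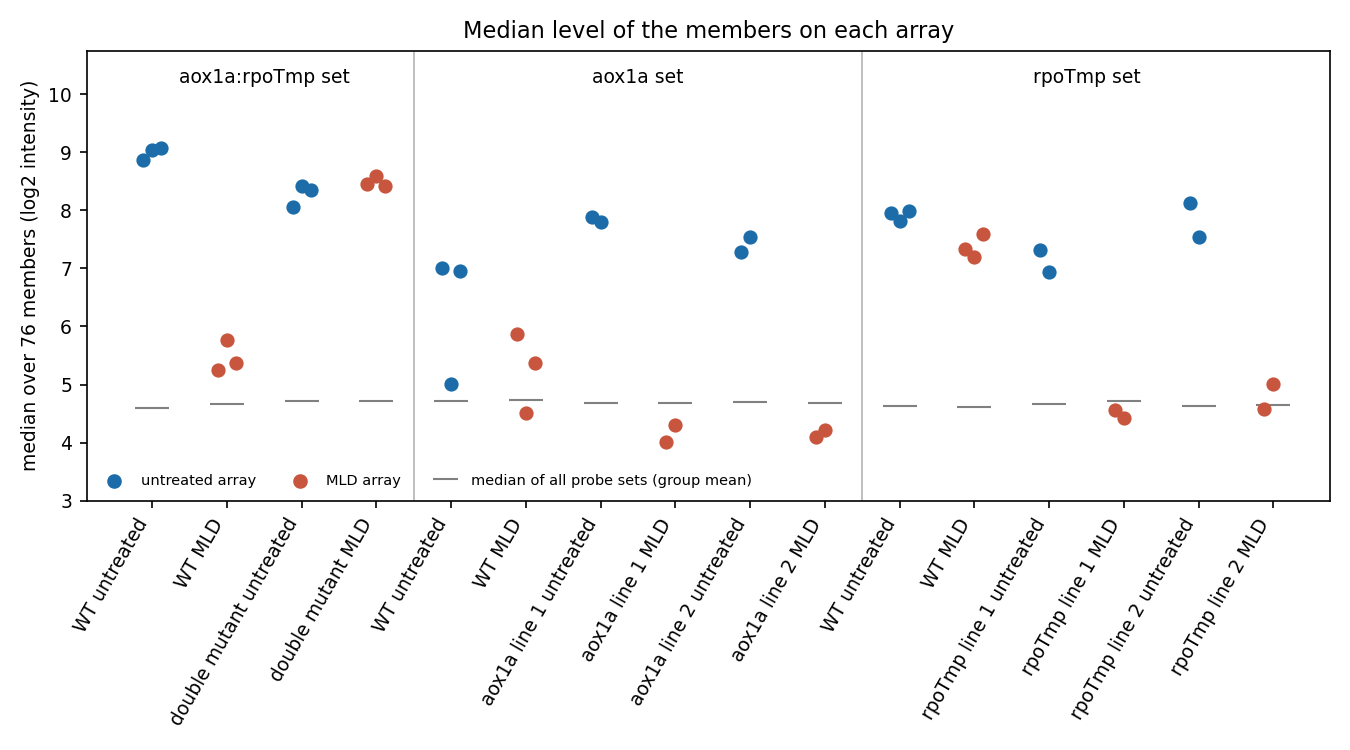
Median log2 intensity over the 76 members on each of the 40 arrays, untreated in blue and MLD in red, with a grey dash at the mean of the arrays' medians over all probe sets. The double mutant arrays stay above 8 in both treatments, the single-mutant MLD arrays run from 4.00 to 5.01, and in the aox1a set 1 wild-type array from untreated plants also lies at 5.01, apart from its 2 companions.

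In the aox1a set 2 of 76 members fell in wild type and none rose (1.27% of all probe sets fell and 2.08% rose), with a median change of -1.18 and 71 of 76 estimates below 0. Over all probe sets the median was -0.01, with 13605 of 22746 estimates below 0. The count of members called was not stable when arrays were left out. The untreated wild-type replicate 2 had a median over the members of 5.01, against 7.01 and 6.95 for the other untreated wild-type arrays. With 1 array left out at a time the count ran from 0, without aox1a line 1 MLD replicate 1, to 59, and each of the 14 moved it by over 1.5 times. Without replicate 2 of the untreated wild type 59 members were called, all lower, with a median change of -1.84, while 3119 probe sets were called in all in place of 763. No member differed between the wild-type MLD responses of the aox1a and rpoTmp sets (limma, 0 of 76 called, 0.339% of all probe sets called, 5 members with an unadjusted p under 0.05). Without that array 16 did, and the share of all probe sets called in that fit is not given here. AT5G03350 shows the array's place: untreated wild type read 11.17, 5.40 and 11.31 in the aox1a set, and MLD wild type 5.84, 3.25 and 6.51. Members also started lower in this set, where 33 of 76 reached a mean of 7 in untreated wild type, than in the rpoTmp set, where 55 did.

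Most members fell under MLD in both single mutants. In aox1a 67 of 76 members fell and 1 rose (27.2% of all probe sets fell and 24.8% rose), with a median change of -3.06. In rpoTmp 68 of 76 fell and 1 rose (16.7% of all probe sets fell and 18.0% rose), with a median change of -2.24. The sets have separate wild types, and 66 members fell in both mutants, as did 12.8% of all probe sets. Among probe sets outside the group with an untreated wild-type mean of at least 7, 30.6% fell in aox1a and 37.9% in rpoTmp. Leaving out any 1 array gave 63 to 72 members called in aox1a and 65 to 70 in rpoTmp. Signs of RNA quality and of senescence moved beside these falls, though not in the mutants alone. The mean log2 ratio of 3′ to 5′ GAPDH signal went from 3.16 to 3.70 in rpoTmp line 1 and from 3.12 to 3.48 in line 2, and from 2.73 to 3.14 in aox1a line 1, but from 3.47 to 2.93 in aox1a line 2. Both measured senescence markers, SAG29 and WRKY53, were called higher under MLD in each mutant. Their summed intensity ran from 16.0 to 22.3 in untreated aox1a and from 66.5 to 184 under MLD, and from 14.2 to 71.3 in untreated rpoTmp and from 64.6 to 238 under MLD. Their part in the falls was not tested.

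**Figure D4:**
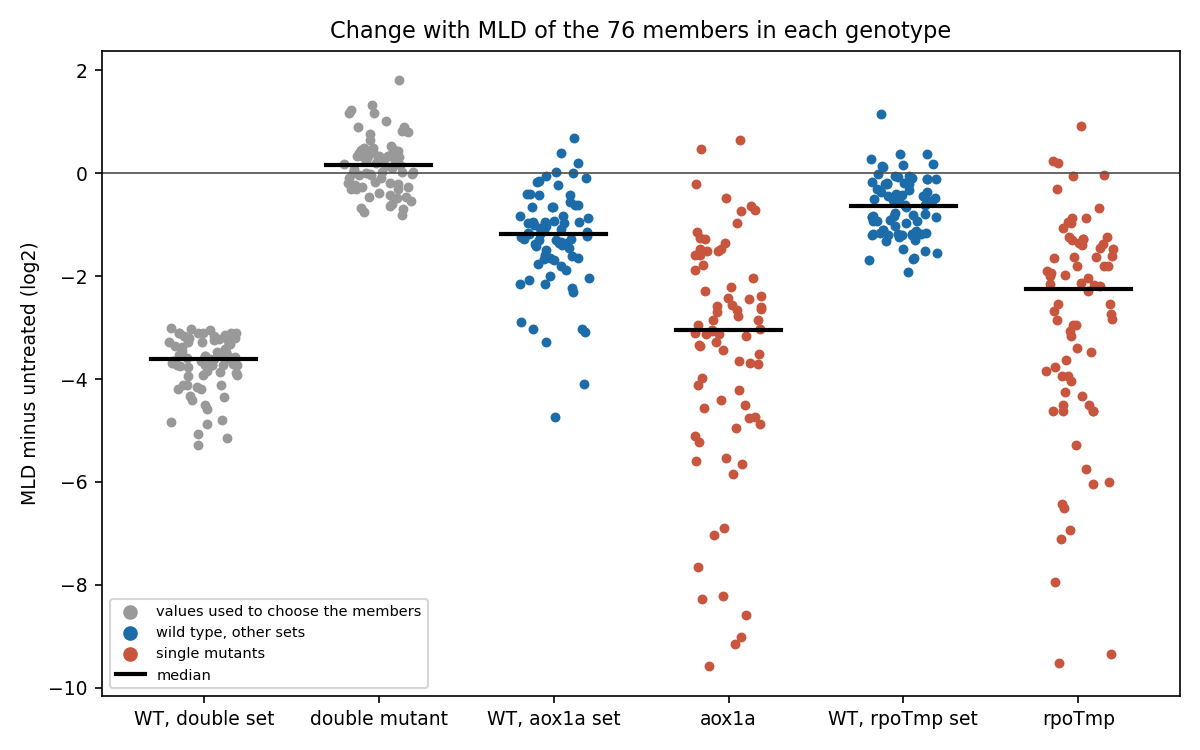
Change with MLD (log2, MLD minus untreated) of each of the 76 members in the 3 wild types and 3 mutants, with a bar at the median. Grey points are the values that chose the members. The medians are -3.61, 0.17, -1.18, -3.06, -0.64 and -2.24 from left to right, so the double mutant is the 1 genotype plotted whose median is not below 0.

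Among the role groups, secreted, wall and defence genes had the lowest median change in both mutants, at -7.03 in aox1a and -6.03 in rpoTmp. All 9 were called lower in both mutants, as were 12.8% of all probe sets. AT2G10940 showed the deepest fall of the single-gene members, from 12.37, 12.30, 12.12 and 12.22 on the untreated aox1a arrays (2 of line 1, then 2 of line 2) to 2.47, 2.39, 3.30 and 2.52 under MLD, a change of -9.58 ± 0.73 (SE, adjusted p = 3.33e-05, limma). In rpoTmp it went from 12.15, 10.66, 12.92 and 12.75 to 2.40, 2.37, 2.60 and 3.80, a change of -9.33 ± 0.35 (adjusted p = 5.52e-07). The MLD values of both mutants lie close to the lower quartile of all probe sets, apart from the 3.30 of aox1a and the 3.80 of rpoTmp, and a fall below such values could hardly be measured.

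Steep falls were also seen in other named members of this role group. AT1G66100 changed by -9.01 ± 0.70 in aox1a (adjusted p = 3.62e-05) and by -7.11 ± 0.49 in rpoTmp (adjusted p = 7.98e-06). AT5G03350 changed by -9.15 ± 1.29 (adjusted p = 0.000473) and -6.50 ± 0.66 (adjusted p = 6.62e-05). AT1G09750 changed by -7.65 ± 0.84 (adjusted p = 0.000145) and -6.03 ± 0.29 (adjusted p = 1.57e-06), and AT3G05730 by -7.03 ± 0.56 (adjusted p = 3.89e-05) and -6.42 ± 0.60 (adjusted p = 3.95e-05). The thionin, the lectin-like gene, the protease and the defensin-like gene kept these calls whichever array was left out.

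Of the histones, all 7 shared H3 and H4 probe sets fell in both mutants (12.8% of all probe sets did), with medians of -3.10 in aox1a and -2.29 in rpoTmp. HTB2 fell as well, by -3.07 and -2.96, reaching 3.01 to 4.47 on the aox1a MLD arrays and 4.06 to 4.62 on the rpoTmp MLD arrays. HTB1 did not pass the test in either, with changes of -0.22 ± 0.12 (adjusted p = 0.148) and -0.04 ± 0.15 (adjusted p = 0.901), and its arrays in both of these sets all read between 7.08 and 8.29. The H2B pair that moved together in the aox1a:rpoTmp set thus had unlike values in the single mutants, a difference between probe sets that was not tested.

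The next counts stand beside 27.2% of all probe sets called lower in aox1a, 16.7% in rpoTmp and 12.8% in both. Ribosome and RNA members fell less than the secreted group, with 5 of 6 called lower in each mutant and medians of -2.05 in aox1a and -1.28 in rpoTmp. AT3G21300 was the exception, at -0.74 ± 0.28 (adjusted p = 0.0526) and 0.20 ± 0.27 (adjusted p = 0.673). Of the 5 plastid and metabolic members 4 fell in each mutant, with medians of -2.43 and -1.28. CCS did not pass the test, at -0.96 ± 0.39 (adjusted p = 0.0638) and -1.28 ± 0.49 (adjusted p = 0.0737). All 5 of the other single-gene members fell in both mutants, AT5G54970 by -5.10 and -4.63 and AT4G28310 by -3.52 and -3.41. Both genes that were already low in the untreated double mutant also fell in the single mutants: AT1G31690 by -3.13 and -6.00, and AT5G35740 by -1.51 and -1.45.

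In all, 7 members fell in neither single mutant: AT3G21300, CCS, HTB1 and 4 unnamed probe sets, against 68.9% of all probe sets that fell in neither. Of the unnamed ones, 1 rose in aox1a by 0.64 ± 0.22 (adjusted p = 0.0369) and another rose in rpoTmp by 0.91 ± 0.24 (adjusted p = 0.014), and 28.1% of all probe sets rose in at least 1 of the mutants.

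**Figure D5:**
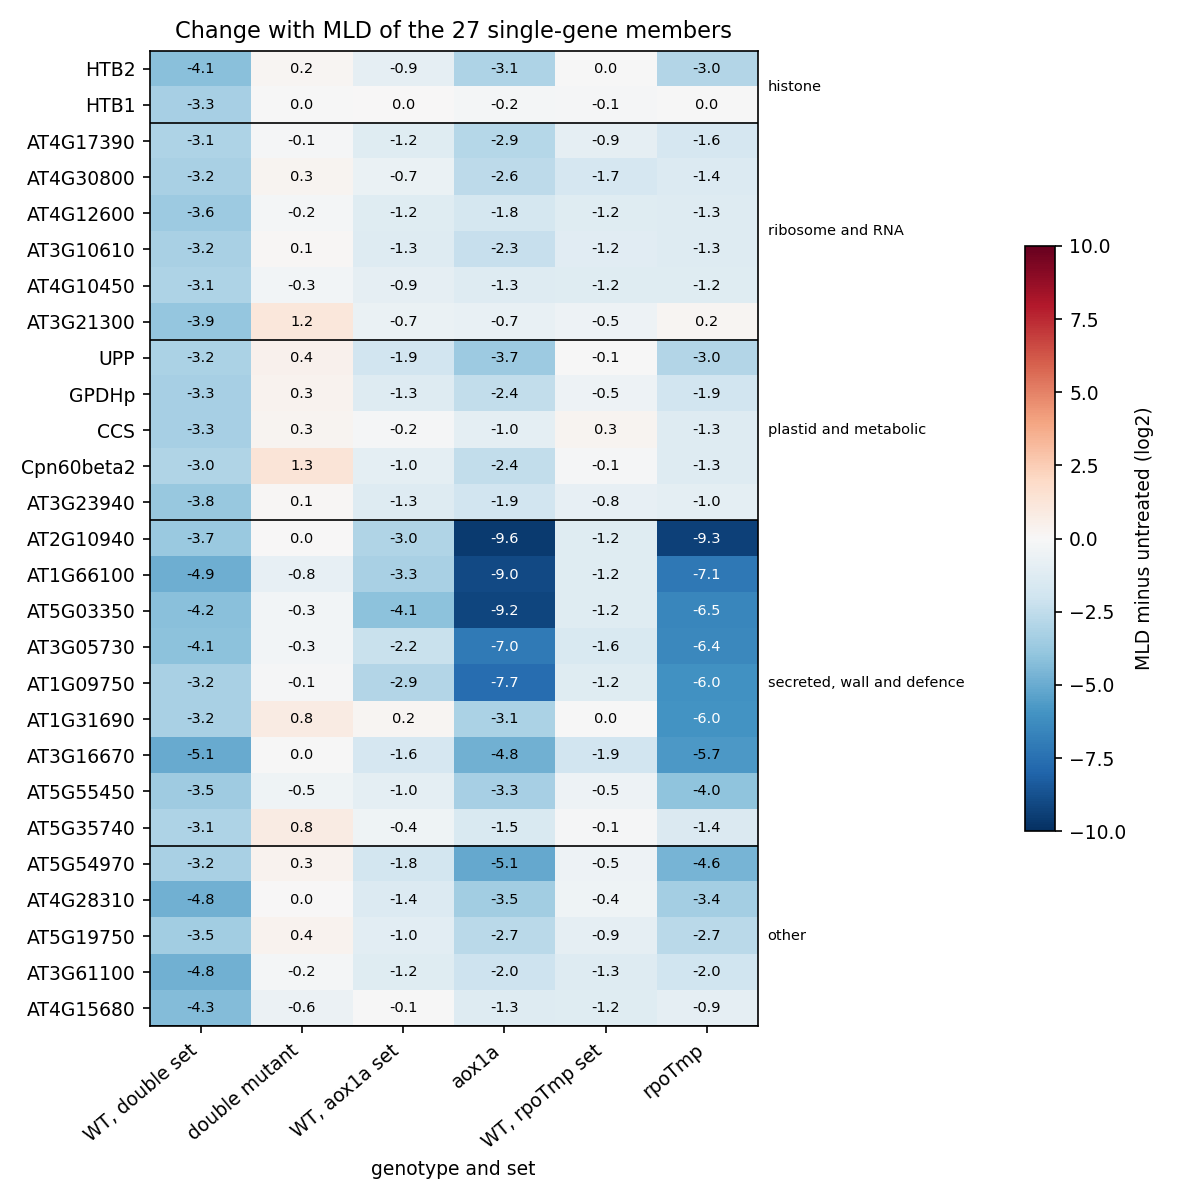
Change with MLD (log2, MLD minus untreated, printed in each cell) of the 27 single-gene members, in rows grouped by role, in the 3 wild types and 3 mutants, in columns. Blue is a fall and red a rise. The secreted, wall and defence rows have the lowest median in aox1a and rpoTmp, though not every row is deep (AT5G35740 changed by -1.51 and -1.45). The double mutant column is near 0 or above in most rows.

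In untreated plants few members passed the test between a single mutant and its wild type. In untreated aox1a 10 members were higher and none lower than wild type (3.28% of all probe sets were higher and 3.57% lower), with a median difference of 1.40. The low untreated wild-type array enters this value: without it 9 members were called and the median difference was 0.71. The count ran from 2 without aox1a line 1 untreated replicate 1 to 24 without wild-type untreated replicate 1, and 11 of the 14 arrays moved it by over 1.5 times when left out. The called single genes were AT3G16670 (3.27 ± 0.62, adjusted p = 0.0321), AT4G28310 (2.04 ± 0.43, adjusted p = 0.0367), HTB2 (1.48 ± 0.33, adjusted p = 0.04), AT5G35740 (1.42 ± 0.32, adjusted p = 0.0411) and AT4G15680 (1.23 ± 0.10, adjusted p = 0.00272). Of these 5 AT4G15680 alone kept its call when any 1 array was left out. In untreated rpoTmp 2 members were lower and none higher (0.651% of all probe sets were lower and 0.901% higher), AT3G23940 (-0.81 ± 0.15, adjusted p = 0.0349) and 1 unnamed probe set, and the median difference was -0.56. Leaving out single arrays moved this count between 0 and 13, the lowest without rpoTmp line 1 untreated replicate 2 and the highest without rpoTmp line 2 untreated replicate 1.

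Under MLD rpoTmp stood below its wild type at 66 of 76 members and above at none (14.3% of all probe sets were lower and 15.7% higher), with a median difference of -2.37. In the double mutant the members stood above wild type under MLD by a median of 2.97. The rule chose them on those values, so that direction is a description without a test. In rpoTmp AT2G10940 was 8.87 ± 0.38 lower on the log2 scale, a difference of -8.87 (adjusted p = 1.73e-06). AT1G31690 differed by -6.50 ± 0.44 (adjusted p = 1.44e-05), AT5G03350 by -5.53 ± 0.72 (adjusted p = 0.000364), AT1G09750 by -5.53 ± 0.32 (adjusted p = 6.93e-06) and AT1G66100 by -5.43 ± 0.53 (adjusted p = 7.7e-05). All 9 secreted, wall and defence members and all 7 shared histone probe sets were among the 66. In aox1a under MLD 11 members were lower than wild type and 2 higher (6.14% and 6.26% of all probe sets), with a median difference of -0.39. The 3 single genes among them were AT2G10940 (-5.13 ± 0.79, adjusted p = 0.00519), AT1G66100 (-4.20 ± 0.76, adjusted p = 0.00976) and AT3G05730 (-2.65 ± 0.60, adjusted p = 0.0236), all secreted, and the last lost its call in 7 of the 14 fits that left out 1 array. Without the low wild-type array 25 members were lower and 4 higher, and without wild-type MLD replicate 1 only 7 members were called in all. The shares of all probe sets called in these fits are not given here, so the shifts cannot be read as particular to the members.

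The interaction, the MLD change in a mutant minus that in its wild type, was then tested. In rpoTmp 45 members had a lower interaction and 1 a higher one (8.03% and 6.91% of all probe sets), with a median of -1.92. In aox1a 28 had a lower one and none a higher one (9.89% of all probe sets were lower and 12.5% higher), with a median of -1.90. Without the low wild-type array the aox1a count was 35 and the median -1.30, and without wild-type MLD replicate 1 the count was 14. Leaving out an array changed the aox1a count by more than 1.5 times for 7 of 14 arrays. The shares of all probe sets called in those fits are not given here. The interaction was lower in both mutants for 25 members (4.05% of all probe sets). In the aox1a:rpoTmp set, by contrast, the rule made this difference positive for every member.

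The counts by role group follow, beside 8.03% of all probe sets with a lower interaction in rpoTmp and 9.89% in aox1a. All 9 secreted, wall and defence members had a called interaction in rpoTmp and 5 of 9 in aox1a, led by AT2G10940 with -8.14 ± 0.53 (adjusted p = 7.53e-05) and -6.55 ± 1.11 (adjusted p = 0.00729). Of the 7 shared histone probe sets, 6 had one in rpoTmp and 3 in aox1a, and HTB2 had one in both, at -2.94 ± 0.38 (adjusted p = 0.00131) and -2.20 ± 0.46 (adjusted p = 0.0136). None of the 6 ribosome and RNA members had a called interaction in either mutant, a count near those shares for so few probe sets, with medians of -0.08 in rpoTmp (range -0.72 to 0.69) and -0.78 in aox1a (range -1.95 to -0.09). For AT4G30800 the rpoTmp set shows this directly: wild type went from 7.06, 6.41 and 6.52 to 4.69, 4.94 and 5.33, and rpoTmp from 5.43, 5.39, 6.08 and 5.36 to 3.83, 4.12, 4.19 and 4.55, so the arrays of both genotypes went down, and rpoTmp lay below wild type in either treatment without overlap. Whether role groups differ from each other was not tested, and the role groups were formed after the members were known.

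The 36 probe sets that fell in wild type as deeply but also fell in the double mutant give a point of comparison. Their median change was -3.84 in wild type and -2.10 in the double mutant. In aox1a under MLD 30 of 36 fell with a median of -3.52, and in rpoTmp 25 of 36 fell with a median of -1.45. Against wild type under MLD, 18 of 36 were lower in rpoTmp, with a median difference of -0.95, beside the 66 of 76 members. Their rpoTmp interaction had a median of -0.17, with 7 lower and 2 higher. In the aox1a set the comparison looks otherwise: the interaction was lower for 19 of 36, with a median of -2.51, beside 28 of 76 members and -1.90. Against wild type under MLD the medians in aox1a were -0.43 for the 36 and -0.39 for the members. The difference between the groups of probe sets was not tested.

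None of the 27 single-gene members was matched to any of the 17 pathway lists or 9 marker lists read beside them. Matching went by gene symbol or synonym, and most of these members are named here by a locus number only. The absence of a match therefore says little about what they do: AT2G10940 and AT5G55450, described above as lipid-transfer types, were not matched to the list for wax, cutin and lipid transfer. The lists were matched to single-gene probe sets only, so the 9 several-locus and 40 unnamed members could not match. The dividing-cell list names H4, and 2 of those 9 members pair with 8 histone H4 loci. Of the 9 measured genes of chlorophyll synthesis, 8 fell and 1 rose in wild type of the double set (24.2% and 18.3% of all probe sets), 1 fell in the double mutant (11.9%), and the interaction was higher for 7 and lower for 1 (16.8% and 15.9%), with a median of 1.35. HEME1, a uroporphyrinogen decarboxylase, changed by -2.04 ± 0.22 in wild type (adjusted p = 4.57e-05, limma). In rpoTmp 7 of these 9 genes had a lower interaction (8.03% of all probe sets). Of the 4 measured cytokinin genes 3 fell in wild type and none rose, among them ARR15 and UGT76C2, which encodes a cytokinin glucosyltransferase and changed by -4.24 ± 0.18 (adjusted p = 4.55e-07). Of the 19 expansins, which loosen cell walls, 3 fell and 3 rose, as did 2 and 3 of 10 xyloglucan endotransglucosylases and 3 and 4 of 13 pectin and cellulose genes. Falls and rises numbered 4 and 1 of 7 nuclear photosystem genes, 3 and 1 of 16 auxin genes, 1 and 5 of 11 drought and abscisic acid genes, and none and 5 of 8 flavonoid genes. Touch and calmodulin-like genes had 3 falls and 9 rises of 16, and nitrate and sulfate genes 2 falls and 6 rises of 14. The other pathway lists had at most 5 measured genes. The lists were chosen with earlier results of these data known.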

How the data were processed

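Leaf RNA was measured on 40 Affymetrix 3′ arrays. The deposited values are intensity units, not logged, for 22810 probe sets. Tools that the submitters' processing notes list are Affymetrix Expression Console, Partek 6.5, GCRMA and MAS5, with no roles or order. Array medians of 23.5 to 27.2 show a common scale. Lower quartiles of 5.55 to 6.10 show that many probe sets lie near the floor, so falls there are compressed. The number of arrays limits the precision.

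Values were taken to log2 with no pseudocount, and the 64 control probe sets were left out. A single gene is listed for 13513 of the rest, several loci for 503 and no gene for 8730, and 13436 matched the TAIR10.1 gene table, used for names only. With limma 3.58.1 (R 4.3.3) the sets were fitted separately, 1 coefficient per group, lines averaged, with Benjamini-Hochberg adjustment over 22746 probe sets and calls at 0.05. The fit was tested on simulated data.

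Members, gene lists and role groups were chosen with earlier results of these data known. Named were the single-gene members with the deepest wild-type fall (up to 8 per class), up to 5 called single-gene members each way per comparison, up to 2 genes each way per list, and the nearest 2 genes each side of a limit. HTB1 and AT4G30800 were given by array, and other members by role, as further examples. Alternatives were other limits, log2(value + 16), quantile normalization, a filter at a mean log2 of 5, a variance trend, all 40 arrays in 1 fit, a replicate block, single lines and leaving out arrays. RPOTMP was dim, with group means of 2.48 to 4.28, so it gave no check of the labels, and AOX1A was not analysed here.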

Additional observations from a re-analysis of the deposited data

Results flagged for a closer look

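The MLD response of a single mutant differed from that of its own wild type, by the interaction term in limma, for 28 members in aox1a and 46 in rpoTmp, 45 of them lower. In aox1a the named single genes were AT2G10940 (-6.55), AT1G66100 (-5.73), AT3G05730 (-4.81), AT1G09750 (-4.75) and AT3G16670 (-3.12). The calls of AT1G09750 and AT3G16670 were lost in 9 and 11 of the 14 fits that left out 1 array. In rpoTmp they were AT2G10940 (-8.14), AT1G31690 (-5.95), AT1G66100 (-5.93), AT5G03350 (-5.30) and AT3G05730 (-4.86), and these 5 kept their calls whichever array was left out. All are changes on the log2 scale. No group has more than 3 arrays, so no array was tested as an outlier.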

How the results depend on the processing

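Of 316 counts under an alternative, 230 stayed within 1.5 times the main count and 86 did not. Members numbered 76, and 177 with a wild-type fall of at least 2.5, 46 with at least 3.5 and 49 with log2(value + 16), where those staying high numbered 155, 44 and 45. Already low were 13 at a fall of 2.5, 2 at 3.5 and 12 at an untreated level of 6. With all 40 arrays in 1 fit, calls were 34 (wild-type response, aox1a set), 6 (wild-type response, rpoTmp set), 49 (aox1a untreated), 23 (aox1a under MLD) and 47 (aox1a interaction). With a filter at a mean log2 of 5 they were 12 (wild type, aox1a set), 21 (aox1a untreated) and 10 (rpoTmp untreated). A variance trend gave 4 (wild type, aox1a set) and 17 (aox1a untreated), and log2(value + 16) gave 0 (wild type, aox1a set) and 8 (aox1a under MLD). Lines 1 and 2 alone gave 2 and 1 (aox1a untreated), 11 and 0 (rpoTmp untreated), 7 and 2 (aox1a under MLD) and 14 and 1 (aox1a interaction). The cause was not tested. Signal near the floor limits how far a fall can be followed.

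Same-numbered arrays showed no common pairing: 3 of 18 correlations of their deviations were over 0.1 (range -0.21 to 0.53). In the wild type of the aox1a set the same-numbered correlations were 0.53, 0.32 and -0.21. Arrays of unlike number there ran from -0.60 to 0.48, so pairing in that wild type was not settled. With the replicate number as a block, 0 members were called for wild type in the aox1a set, 5 for wild type in the rpoTmp set and 0 for untreated rpoTmp.

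Leaving out 1 array gave 68 to 102 members, 61 to 98 staying high and 2 to 7 already low. For the calls that follow, the shares of all probe sets in the same fits are not given, so the ranges cannot be read as particular to the members. Calls ran from 0 to 59 (wild type, aox1a set), 1 to 15 (wild type, rpoTmp set), 63 to 72 (aox1a response), 65 to 70 (rpoTmp response), 2 to 24 (aox1a untreated), 0 to 13 (rpoTmp untreated), 7 to 29 (aox1a under MLD), 59 to 67 (rpoTmp under MLD), 14 to 36 (aox1a interaction), 40 to 51 (rpoTmp interaction) and 0 to 16 (wild-type responses compared between sets).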
